A study of Homo sapiens with 9 samples.

Results

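The genes described here were near silent in HepG2 cells carrying a control guide and were read in both KEAP1 knockout (KO) populations. A feature was taken when it had at most 3 raw counts in each of the 3 control libraries and a mean of at least 7 raw counts over the 3 libraries of each KEAP1 guide. Of 12798 features in the count table, 77 met these limits (0.602%). A gene number, and with it a symbol, was given for 70 of them, and the other 7 are followed here by their counts only. Among the 70 were 62 protein-coding genes, 6 long non-coding RNAs, 1 pseudogene and 1 small nucleolar RNA. They were chosen by their raw counts in the control and KEAP1 guide libraries, so their levels against the control are a description with no test.

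KEAP1 is the adaptor of a cullin ubiquitin ligase that holds the transcription factor NRF2 at a low level. When KEAP1 is lost or modified by electrophiles, NRF2 accumulates, pairs with small MAF proteins and binds the antioxidant response element (ARE) of genes for glutathione synthesis, NADPH supply and detoxification. HepG2 is a human hepatoblastoma-derived liver cell line that keeps many hepatocyte transcripts. In such cells many genes of other tissues are kept off, and a gene that is off in the control can be read only once transcripts appear.

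All 9 libraries came from HepG2 cells transduced with the CRISPR/Cas9 vector lentiCRISPRv2 and selected with puromycin, and RNA was taken 48 h after seeding. The 3 groups were sgCtrl (a guide to the AAVS1 safe-harbour locus), sgKEAP1-1 and sgKEAP1-2 (guides to KEAP1), with 3 libraries in each. Selection of single clones is not described, so the KO cells are treated here as pools. QuantSeq reads the 3′ end of a polyadenylated transcript, so that a gene's count does not scale with its length and levels are given as CPM, a library's counts scaled to 1000000 effective reads. Fewer cells that express a gene and less RNA per cell cannot be told apart in such bulk libraries. Whether the 3 libraries of a group came from separate cultures is not given in the sources used here, and p-values then measure only the spread between these libraries.

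Counted reads per library ranged from 3051755 to 4793757. KEAP1 mRNA averaged 79.3 ± 13.9 CPM in sgCtrl, 59.99 ± 5.77 with sgKEAP1-1 and 80.5 ± 5.98 with sgKEAP1-2 (SD, n = 3 libraries each). Neither difference passed edgeR's quasi-likelihood test (adjusted p = 0.211 and 0.952), and a 3′ read does not show whether the coding sequence was cut. Of 30 NRF2 target genes, 29 were tested: 24 rose with sgKEAP1-1, where 2.8% of all features rose, and 27 rose with sgKEAP1-2, where 5.96% rose. None of the 29 fell. The largest change on that list was in AKR1B10, an aldo-keto reductase, at 36.9 ± 12.5 CPM in sgCtrl, 996 ± 213 with sgKEAP1-1 and 1264 ± 477 with sgKEAP1-2 (SD, n = 3 each). No gene of this fixed list was among the 77, and nothing is read from this. All 29 were read above the limit in sgCtrl, the lowest being TRIM16L at 2.51 CPM, so none could be taken. Whether the 77 hold NRF2 targets outside the list was not tested.

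Counts of the 77 in sgCtrl were at the floor of what these libraries can show. All 3 sgCtrl libraries had 0 counts for 15 of them, 33 had 1 to 3 counts over the 3 libraries together, and 29 had more, up to 8. A count of 0 allows up to 3 counts, which over the 3 sgCtrl libraries together is 0.291 CPM and covers counting error only. Every KEAP1 guide library lay above every sgCtrl library for 71 of the 77, against 10.9% of all features, and nothing is read from this since the limits used the same contrast. The 6 with overlap were JAKMIP3, ABCA4, CORO6, LINC00862, HSPB8 and RASSF6, and 11 features had 3 counts or fewer in at least 1 KEAP1 guide library. The table holds only features above 0.5 CPM in at least 3 libraries, and 4 of the 77 were above that in all 3 sgCtrl libraries.

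Levels in the KO cells were mostly low. The mean over the 6 KEAP1 guide libraries ran from 1.81 to 50.3 CPM with a median of 3.31 CPM, while the median of all features with a gene number was 26.8 CPM. MAP2 and DEFB1 alone were above that median, 9 of the 77 reached 10 CPM, and 57 stayed under 5 CPM. The 15 highest genes took 54.1% of the reads of the 77 in the KO libraries, and MAP2 took 11.6%. Summed over all 77, the level was 23.1, 27.2 and 19.2 CPM in the sgCtrl libraries, 389, 380 and 315 CPM with sgKEAP1-1, and 559, 502 and 440 CPM with sgKEAP1-2 (replicates 1, 2 and 3). The ranges with the 2 guides did not overlap, with or without MAP2 and DEFB1. These sums add up the counts that chose the features, so the gap between the guides is a description only. A limit on raw counts asks for a higher CPM in a library with fewer reads. The part of depth in the gap was not tested.

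**Figure D1:**
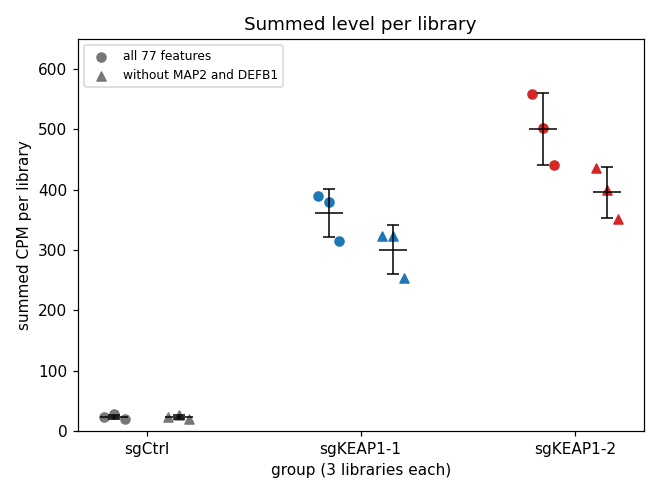
Summed CPM of the 77 features in each library (circles) and without MAP2 and DEFB1 (triangles), with the mean and SD of the 3 libraries of each group (black). The sgKEAP1-1 libraries sit between 315 and 389 CPM, the sgKEAP1-2 libraries between 440 and 559 CPM, and the sgCtrl libraries at 27.2 CPM or less. The sums are of the counts that chose the features and are a description only.

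MAP2 (gene number 4133, GRCh37 chr2:210288771-210598871, plus strand) encodes a microtubule-associated protein of neuronal dendrites. It had 0, 1 and 0 counts in sgCtrl, 188, 188 and 146 counts with sgKEAP1-1, and 240, 228 and 195 counts with sgKEAP1-2. These were the highest counts of the set, and each sgKEAP1-2 library exceeded each sgKEAP1-1 library. Its mean was 41.7 ± 3.76 CPM and 58.9 ± 13.6 CPM (SD, n = 3 each). The KO level was 509 times that of sgCtrl, where a single read was counted, with an exact 95% interval from 91.2 to 20123 that covers counting error only. MAP1A (gene number 4130, chr15:43803156-43823818), another neuronal microtubule-associated protein, had no read in sgCtrl, 21, 22 and 5 counts with sgKEAP1-1 and 22, 34 and 25 counts with sgKEAP1-2.

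DEFB1 (gene number 1672, chr8:6728114-6735458, minus strand) encodes beta-defensin 1, an antimicrobial peptide that kidney and other epithelia make without induction. Its counts were 1, 0 and 0 in sgCtrl, 81, 68 and 87 with sgKEAP1-1, and 161, 189 and 174 with sgKEAP1-2. The libraries of each guide were close to one another and the guides lay apart, at 19.1 ± 4.06 and 45.9 ± 3.71 CPM (SD, n = 3 each). The other gene of host defence, PRF1 (perforin, the pore-forming protein of cytotoxic lymphocytes), averaged 2.57 CPM in the KO libraries.

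The receptor and ligand group held 13 genes, from 2.12 to 20.2 CPM in the KO libraries. NOTCH3 (gene number 4854, chr19:15269849-15311806, minus strand), a NOTCH receptor best known in vascular smooth muscle, had 1, 0 and 1 counts in sgCtrl, 83, 97 and 37 with sgKEAP1-1, and 73, 119 and 78 with sgKEAP1-2. P2RY6, a receptor for uridine nucleotides, had 1, 2 and 1 counts, then 56, 23 and 32, then 55, 27 and 71, so that replicate 2 was the lowest with both guides. LYVE1, a hyaluronan receptor of lymphatic endothelium, had 0, 2 and 1 counts, then 49, 31 and 18, then 41, 43 and 26. For all of these the KO libraries lay above sgCtrl and the guides overlapped.

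Other receptors of this group were at similar or lower counts. CACNG4, an auxiliary subunit of neuronal glutamate receptors and calcium channels, had 3, 1 and 0 counts in sgCtrl, 36, 25 and 25 with sgKEAP1-1, and 34, 43 and 27 with sgKEAP1-2. F2RL2, a thrombin receptor of the protease-activated family, had no read in sgCtrl, 27, 37 and 11 counts with sgKEAP1-1 and 27, 36 and 24 with sgKEAP1-2, at least 23.2-fold higher in the KO libraries when the floor of 3 counts over sgCtrl is used. The group also took in the ligands EGF (3.40 CPM in the KO libraries) and NRG1 (4.39 CPM), which act on receptors of the ERBB family, and MAML3 (3.49 CPM), a coactivator of NOTCH signalling. SSTR3 (a somatostatin receptor), FIBCD1, TLR6, VSIR and IRS2 completed it.

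The matrix and surface proteolysis group held 8 genes, from 2.21 to 19.9 CPM. TINAG (gene number 27283, chr6:54172657-54254940, plus strand), a basement membrane protein of kidney tubules, had no read in sgCtrl, 71, 137 and 47 counts with sgKEAP1-1, and 61, 112 and 57 counts with sgKEAP1-2. Replicate 2 was the highest with both guides, the means were nearly equal (19.8 ± 9.02 and 19.97 ± 6.83 CPM, SD, n = 3 each), and the KO level was at least 69.4-fold higher. LAMC3, a laminin gamma chain of basement membranes, had 0, 1 and 1 counts, then 41, 42 and 17, then 65, 55 and 81, with no overlap between the guides. PCDH1 (an adhesion protocadherin, 5.58 CPM in the KO libraries), MMP2 (a gelatinase, 3.77 CPM), TSPAN15 (a tetraspanin partner of the sheddase ADAM10, 3.42 CPM), ITGA10 (a collagen-binding integrin chain of cartilage, 3.31 CPM), SPINT1 (an inhibitor of surface serine proteases, 2.33 CPM) and PRSS23 (a secreted serine protease, 2.21 CPM) were the others.

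Enzymes and transporters numbered 9, from 2.06 to 19.2 CPM. TUSC3 (gene number 7991, chr8:15274724-15624158, plus strand), a subunit of the oligosaccharyltransferase that glycosylates asparagines, had no read in sgCtrl, 58, 99 and 48 counts with sgKEAP1-1, and 86, 99 and 66 counts with sgKEAP1-2, at least 65.3-fold higher. QPCT, the cyclase that forms N-terminal pyroglutamate, had 2, 0 and 1 counts, then 32, 26 and 23, then 29, 39 and 15. UGT1A1, the bilirubin-conjugating enzyme of hepatocytes, had 0, 1 and 2 counts, then 35, 27 and 34, then 29, 37 and 45, and was the only gene of the set placed by its main normal site in the liver. The UGT1A genes share their 3′ exons and the table gives a row to UGT1A1 alone, so reads of that row cannot be told apart between them. Lower in the group were CA12 (a carbonic anhydrase), SLC7A7 (a cationic amino acid transporter), A4GALT (the globotriaosylceramide synthase), ABCA4 (the retinoid transporter of photoreceptors), SLC26A9 (a chloride transporter of stomach and airway) and ALDH1L2 (a mitochondrial folate enzyme).

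The cytoskeleton group was the second in size with 12 genes, from 2.23 to 50.3 CPM. Below MAP2 stood BIN1, a membrane-bending adaptor, with 0, 2 and 2 counts in sgCtrl, 46, 29 and 28 with sgKEAP1-1, and 38, 63 and 45 with sgKEAP1-2. CABYR, a calcium-binding protein of the sperm tail, had no read in sgCtrl, then 16, 32 and 16, then 34, 25 and 29 counts, at least 21.8-fold higher. TMEM92, which was grouped with other membrane proteins, had 0, 2 and 0 counts, then 37, 62 and 26, then 34, 67 and 34, with replicate 2 the highest for both guides. By CPM, replicate 2 was the highest for 31 of the 77 with sgKEAP1-1, against 37.2% of numbered features. With sgKEAP1-2 it was the highest for 20 of the 77, against 34.1%. Also in the cytoskeleton group were RAC2, a small GTPase typical of blood cells, TRIM54 and CORO6 of striated muscle, JAKMIP3, CLIP4, ARHGAP40 and TBC1D30. The remaining genes with a known role comprised 5 nuclear proteins (TNP1, a chromatin protein of spermatids, SLFN5, SP6, SP140 and OSR1), 4 calcium-binding or stress proteins (CALB2, SNCG, HSPB8 and CPNE8) and GPNMB, ELAPOR1 and IRAG1 of the membrane group. The other 13 numbered genes, including all 6 long non-coding RNAs, were given no role.

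The 15 features with no read in sgCtrl were TINAG, TUSC3, F2RL2, CABYR, MAP1A, TNP1, MAML3, CA12, TSPAN15, EGF, CALB2, CLIP4, TRIM54, SNCG and 1 without a gene number. Against the floor of 3 counts over sgCtrl, these were at least 69.4-fold (TINAG) down to at least 6.30-fold higher (the feature without a gene number) in the KO libraries. TNP1, which packs spermatid chromatin, was at least 15.5-fold higher, with 19, 21 and 7 counts with sgKEAP1-1 and 21, 22 and 18 with sgKEAP1-2. CALB2 (calretinin, a calcium-binding protein of neurons) was at least 9.74-fold higher, with 13, 6 and 9 and then 9, 15 and 16 counts. Where sgCtrl had reads, the ratio of KO to sgCtrl levels went down to 3.11 for LINC00862 (exact 95% interval 1.48 to 7.55), which had 3, 2 and 3 counts in sgCtrl, 14, 4 and 7 with sgKEAP1-1 and 2, 14 and 17 with sgKEAP1-2.

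**Figure D2:**
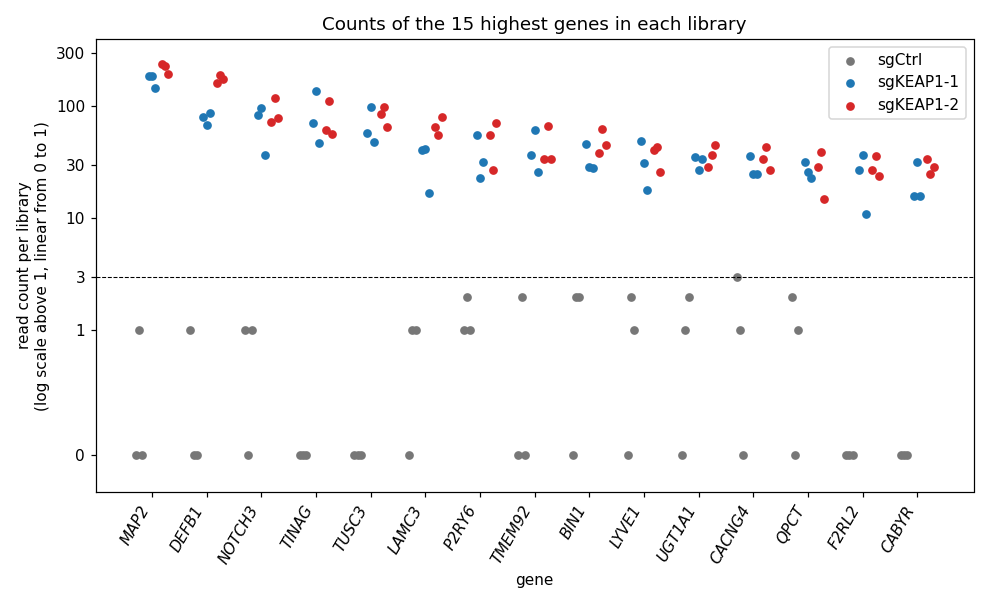
Raw read counts of the 15 genes with the highest mean CPM over the 6 KEAP1 guide libraries, 1 point per library (grey sgCtrl, blue sgKEAP1-1, red sgKEAP1-2), on an axis that is linear from 0 to 1 and logarithmic above. The dashed line marks the limit of 3 counts, at or below which all sgCtrl points lie, while the lowest KO point is 11 counts (F2RL2).

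**Figure D3:**
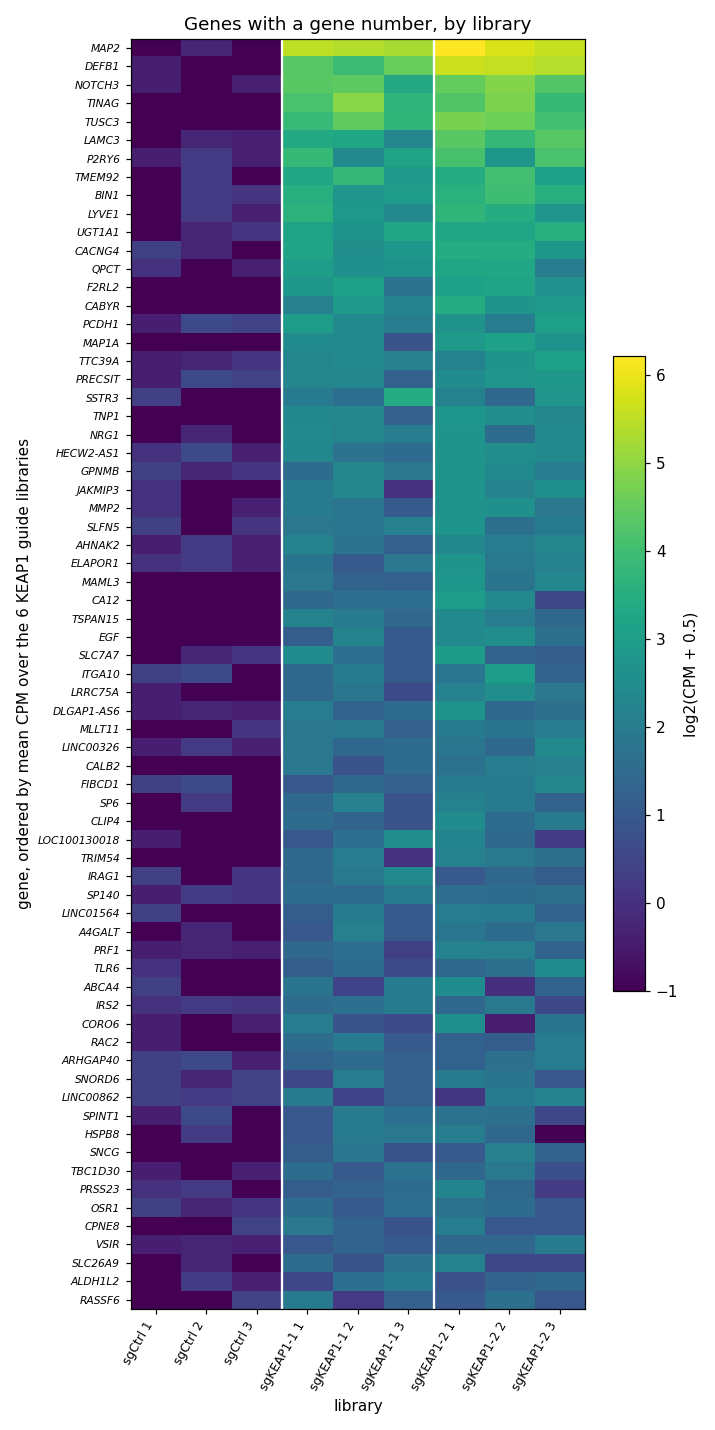
Genes of the set with a gene number (69 of the 70, since 1 is not reported by name, as rows ordered by mean CPM over the KO libraries) in the 9 libraries (columns), coloured by log2(CPM + 0.5). The KO levels run from MAP2 (50.3 CPM) down to RASSF6 (1.93 CPM), and single dark cells in the KO columns mark libraries with few reads, such as HSPB8 with 0 counts in sgKEAP1-2 replicate 3.

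By main normal tissue, from textbook knowledge and assigned after the values were seen, 27 of the 70 could be placed and fell into 10 groups. The nervous system had 7 (MAP2, CACNG4, MAP1A, SSTR3, JAKMIP3, CALB2 and SNCG), blood and immune cells 5 (SP140, PRF1, TLR6, RAC2 and VSIR), kidney 3 (DEFB1, TINAG and EGF), striated muscle 3 (TRIM54, CORO6 and HSPB8), vessel wall 3 (NOTCH3, LYVE1 and IRAG1) and testis 2 (CABYR and TNP1). Cartilage (ITGA10), liver (UGT1A1), retina (ABCA4) and stomach with airway (SLC26A9) had 1 each. The limits took only genes near silent in a liver cell line, so nothing is read from the lack of liver genes. Tissue shares of other features are not at hand for these counts.

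Defining markers of these tissues were looked up from lists. Of 12 neuron markers, 2 had a row: MAP2, and SYP, a synaptic vesicle protein, at 2.38 ± 0.618 CPM in sgCtrl, 1.76 ± 0.895 with sgKEAP1-1 and 1.26 ± 0.829 with sgKEAP1-2. Of 12 kidney tubule markers, 3 had a row: TINAG, the cadherin CDH16 at 3.33 ± 0.488, 2.61 ± 1.79 and 2.72 ± 1.06 CPM, and the transcription factor PAX8 at 10.4 ± 2.52, 10.9 ± 1.39 and 11.4 ± 1.48 CPM in the same order (SD, n = 3 each). CDH16 and PAX8 did not pass edgeR's test with either guide (adjusted p from 0.828 to 0.956). Of 10 endothelial, 10 immune, 10 intestinal and 10 stromal markers, 2, 4, 2 and 2 had a row and none of those tested passed with either guide.

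Some markers of bile duct, and a single squamous marker, moved with the groups. Of 10 bile duct and progenitor markers, 6 were tested, 3 rose with each guide (2.8% and 5.96% of all features rose) and PROM1 fell with sgKEAP1-2 (4.85% fell). SPP1, the secreted phosphoprotein osteopontin, was at 175 ± 32.7 CPM in sgCtrl, 1099 ± 301 with sgKEAP1-1 and 1481 ± 506 with sgKEAP1-2 (SD, n = 3 each). KRT19, a keratin of ductal cells, was at 231 ± 33.6, 562 ± 119 and 645 ± 157 CPM, and CLDN4, a tight junction protein, at 65.0 ± 11.6, 161 ± 20.4 and 218 ± 15.2 CPM in the same order. SOX9 and EPCAM of the same list, at 328 ± 58.6 and 129 ± 10.5 CPM in sgCtrl, did not pass the test with either guide. Of 10 squamous and basal markers only SFN had a row, and it rose from 47.5 ± 3.64 to 209 ± 43.6 and 273 ± 52.6 CPM. All of these genes with a row were read above the limit in sgCtrl, so none could be among the 77.

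Hepatocyte markers moved with the groups too. All 12 were tested: 5 fell and 1 rose with sgKEAP1-1, and 6 fell and 1 rose with sgKEAP1-2, where 1.4% and 4.85% of all features fell. ALB, the albumin gene, fell from 13657 ± 2647 CPM to 6388 ± 1233 and 4320 ± 847 CPM (SD, n = 3 each), and TTR, the thyroxine carrier, rose from 387 ± 51.8 to 600 ± 100.1 and 607 ± 83.4 CPM. The part of these marker shifts in the appearance of the 77 was not tested.

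The direct comparison of the 2 guides asked whether the genes were read at the same level with each. The limits used the mean count with each guide, though not the difference between them, so the values compared are in part those that chose the genes. Of the 70 numbered genes, 50 passed the filter on low counts and were tested. Features called between the guides made up 0.0181% of those tested, 2 of 11064, and none of the 50 was among them by edgeR's quasi-likelihood test with group as the only factor. At an unadjusted p under 0.05 there were 3 of the 50 (DEFB1, LAMC3 and MAP2), where the share of all features was 5.08%. These counts are a description, since the 50 passed the filter through the libraries where they are high. limma-voom called none of the 50 either, and DESeq2 called DEFB1. With the replicate number added as a further factor (a block), edgeR also called DEFB1, among 26 of 11064 features called.

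DEFB1 showed the largest difference among the 50, with a log2 fold change of 1.27 (SE 0.21) for sgKEAP1-2 against sgKEAP1-1. Its adjusted p was 0.0873 in edgeR and 0.00032 in DESeq2, and over all settings tried it ran from 0.00032 to 0.422, the highest being without sgKEAP1-1 replicate 1. It was under 0.05 in 2 of the 17 other settings, DESeq2 and edgeR with the replicate number as a block (adjusted p = 0.00343). LAMC3 had a log2 fold change of 1.15 (SE 0.31, edgeR adjusted p = 0.653) and MAP2 of 0.49 (SE 0.20, edgeR adjusted p = 0.915). TINAG differed by 0.00 (SE 0.35) and NRG1 by 0.04 (SE 0.43), intervals that leave room for differences in either direction.

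The sign of the difference is given as a description only. Genes this low pass the filter only through libraries where they are high, so the sign was taken from a fit without it. The log2 fold change was above 0 for 57 of the 70, and its median was 0.39. Over all features the share was 49.2% and the median -0.00, which is not a no-change value for genes chosen by their counts with each guide. By raw counts 50 of 70 were higher with sgKEAP1-2, and by mean CPM 58 of 70. The limit of 7 counts was set on raw counts, and the sgKEAP1-1 libraries held 3767167 to 4793757 counted reads where the sgKEAP1-2 libraries held 3201097 to 4266750. The part of depth in the sign count was not tested. Of the 29 listed NRF2 target genes with a row, 27 had a higher mean CPM with sgKEAP1-2.

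The CPM of the 2 guides did not overlap for 11 of the 70, against 10.5% of all features. The 11 were higher with sgKEAP1-2, the direction of 647 of the 1228 such features in the table (5.51% of all features): MAP2, DEFB1, LAMC3, MAP1A, PRECSIT, HECW2-AS1, ELAPOR1, LRRC75A, FIBCD1, CLIP4 and VSIR. Genes with a higher mean with sgKEAP1-1 included IRAG1, a smooth muscle signalling protein, at 9, 15 and 19 counts with sgKEAP1-1 and 5, 9 and 7 counts with sgKEAP1-2, and SSTR3 at 14, 12 and 39 against 13, 9 and 26 counts. The libraries of IRAG1 with the 2 guides overlapped in raw counts at 9, and SSTR3 was carried by replicate 3 with both guides. Of the 7 features without a gene number, 5 had a higher mean CPM with sgKEAP1-2, and their KO means lay between 1.81 and 6.26 CPM.

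Members close to the limits show how little separates them from the genes left out. IRAG1, SLC26A9 and ALDH1L2 were inside with a mean of exactly 7.0 counts with sgKEAP1-2, while CLCA4-AS1 and BEAN1 were outside with 6.67 counts there and CKMT2 with 6.67 counts with sgKEAP1-1. On the control side the limit left out genes that were read strongly in the KO cells through a single sgCtrl library with 4 counts. KILH, a long non-coding RNA, had 1, 4 and 0 counts in sgCtrl, 64, 126 and 43 with sgKEAP1-1 and 58, 151 and 52 with sgKEAP1-2. TTC9 was left out in the same way, at 3, 4 and 2 counts, then 86, 80 and 54, then 69, 81 and 60. Of the numbered features that met the limits of 7 counts, 29 had a highest sgCtrl count of 4, and 20 of the 70 had a highest sgCtrl count of 3.

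The 70 lay on 20 chromosomes, with 11 on chromosome 2 (15.7%, against 6.84% of numbered features), 8 on chromosome 1 and 6 on chromosome 17. A GRCh37 position in GENCODE was found for 68, and 5 pairs lay within 1 Mb, of which 4 are described. LYVE1 (chr11:10578513-10633236) and IRAG1 (chr11:10594638-10715535) are both on the minus strand and their gene spans overlap by 38599 bases. SSTR3 (chr22:37600277-37608517) and RAC2 (chr22:37621310-37655634), also both on the minus strand, are 12.8 kb apart, and FIBCD1 and LAMC3 on chromosome 9 are 69.9 kb apart on opposite strands. LINC01564 and TINAG on chromosome 6 are 601 kb apart. These are GENCODE spans. By RefSeq spans LYVE1 and IRAG1 do not overlap and lie 4.43 kb apart. The other gaps are then 4.72 kb (SSTR3 and RAC2), 68.5 kb (FIBCD1 and LAMC3) and 676 kb (LINC01564 and TINAG).

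The nearest genes on each side were examined because the limits did not use them. They made 136 different neighbours, of which 25 were in the table and tested. With each guide 1 of the 25 (4%) was called against sgCtrl, where 4.2% of all features were called with sgKEAP1-1 and 10.8% with sgKEAP1-2. With the replicate number as a block, 2 were called with sgKEAP1-1 and 4 with sgKEAP1-2. The share of all features in that fit is not given here. The neighbour called with group as the only factor was KILH, next to LINC01564 on chromosome 6. KILH was at 0.542 ± 0.722 CPM in sgCtrl, 18.1 ± 8.36 with sgKEAP1-1 and 22.4 ± 12.7 with sgKEAP1-2 (SD, n = 3 each). Its log2 fold changes were 5.13 and 5.43 (edgeR adjusted p = 0.00304 and 0.00105), and it is the gene named above that missed the limits by its single library of 4 counts. The median log2 fold change of the 25 was 0.17 and 0.28, against -0.00 and -0.01 for all features.

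Several genes share sequence with another gene, and the strand setting of the counting is not given in the sources used here. Exonic bases were shared with another gene by 33 of the 68, on the opposite strand by 26, and with a gene that has its own row by 10. Within the last 500 bases of the gene, where QuantSeq reads gather, this held for 4: LRRC75A with SNHG29 (500 bases), PRSS23 with FZD4 (61 bases), TRIM54 with UCN (40 bases) and CORO6 with ANKRD13B (6 bases). SNHG29, on the opposite strand to LRRC75A, was at 642 ± 152 CPM in sgCtrl, 619 ± 69.9 with sgKEAP1-1 and 571 ± 55.7 with sgKEAP1-2. LRRC75A itself had 1, 0 and 0 counts in sgCtrl, 9, 14 and 4 with sgKEAP1-1 and 13, 22 and 13 with sgKEAP1-2. FZD4, UCN and ANKRD13B had higher means with both guides. In the same order of groups, FZD4 was at 114 ± 21.7, 141 ± 8.55 and 184 ± 41.7 CPM. UCN was at 2.18 ± 0.475, 3.69 ± 1.81 and 3.29 ± 0.510 CPM, and ANKRD13B at 1.62 ± 1.08, 2.76 ± 1.05 and 3.26 ± 1.40 CPM. Test results are given for UCN and ANKRD13B, which are also nearest neighbours, and neither passed edgeR's test with either guide (adjusted p from 0.317 to 0.616). The test result of FZD4 is not given here.

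A promoter window of 250 bases before to 50 bases after the start (RefSeq, GRCh38.p14) was at hand for 47 of the 70 (67.1%). This is under the 80% set as a minimum, so a comparison of the set with all genes is void, and the counts are given as they stand. The ARE core TGACNNNGC was found on either strand in 13 of the 47, against 16.1% of all genes with a window. The form TGACTCAGC, which also holds the AP-1 element TGACTCA, was found in 4 (EGF, JAKMIP3, PRECSIT and DLGAP1-AS6), against 0.689% of all genes. TGACTCA alone was in 8 (6.05% of all genes), CACGTG in 3 (8.77%) and TATAAA in 4 (13.99%). A match of letters is not a binding site. The cores of 5 genes, each before the RefSeq start, are shown with 10 bases on either side, since they are the 3 of the form TGACTCAGC that lie wholly before a start and those of CABYR and MAP1A, the genes with the highest mean CPM in the KO libraries among those with a core. Capitals mark the core, read 5′ to 3′ on the strand given, with GRCh37 coordinates.
EGF, chr4:110834010-110834038, minus strand, before the gene: aaaagtggaaTGACTCAGCtttgcttttt
PRECSIT, chr13:111522737-111522765, plus strand, before the gene: gctcctagacTGACTCAGCgctggtcatt
DLGAP1-AS6, chr18:3653035-3653063, plus strand, before one RefSeq start and after another, in an exon of an unnamed transcript and within the DLGAP1 gene span: gactcaggggTGACTCAGCtcttccatga
CABYR, chr18:21719378-21719406, plus strand, inside the longer GENCODE gene span and in no exon: aaacgagcacTGACACAGCgggggcccac
MAP1A, chr15:43809711-43809739, minus strand, inside the longer GENCODE gene span and in no exon: ggctggtccgTGACGAGGCactggagact

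EGF, with its core at positions -19 to -11 from the RefSeq start, had no read in sgCtrl, 7, 19 and 6 counts with sgKEAP1-1 and 16, 22 and 11 counts with sgKEAP1-2. PRECSIT, a long non-coding RNA with the same core and a further TGACGTGGC nearer its start, had 1, 3 and 3 counts in sgCtrl, 18, 21 and 7 with sgKEAP1-1 and 17, 26 and 27 with sgKEAP1-2. Both were read in all 6 KO libraries, at 3.40 and 4.82 CPM on average. The window of MAP2, the highest gene of the set, held no match to the core letters.

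The reverse pattern was rare in the table. A single feature, ADGRD1 (an adhesion G protein-coupled receptor), had at most 3 counts in each of the 6 KEAP1 guide libraries and a mean of at least 7 counts in sgCtrl, at 5, 26 and 3 counts there. The 2 counts are not on an equal footing, since sgCtrl has 3 libraries and the KEAP1 guides have 6.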

How the data were processed

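QuantSeq 3′ libraries of HepG2 cells (3 groups of 3) were analysed from the counts deposited by the authors, whole reads per feature with no normalization. The submitters' processing notes name FastQC 0.72, cutadapt 1.16, STAR 2.7.5b, featureCounts 1.6.3 and limma 3.40.6. They list hg38, whereas the study's methods name GRCh37, and positions here come from GENCODE v44 lifted to GRCh37. Rows without a gene number (1052, 1.34% of reads) were left out of library sizes and tests. CPM are counts scaled to 1000000 effective reads (TMM). Tests used edgeR 4.0.16 (R 4.3.3; quasi-likelihood, robust, filterByExpr, all 9 libraries in 1 fit, Benjamini-Hochberg adjusted p under 0.05). limma 3.58.1 and DESeq2 1.42.0, other scalings and filters, and leaving out each library were alternatives. The fit was tested on simulated data. Changes were set there only in features above a minimum mean count, so that test does not cover the lowest genes of the set. The members and lists were chosen with earlier results of these data known. Genes given in every library were the 15 with the highest mean CPM over the KEAP1 guide libraries, and others were named when they met a gene list, the limits of the rule or the test between guides. A few genes are counted in the totals and not reported by name. Roles and tissues were assigned by hand after the values were seen. Intervals and floors (3 counts, 95% exact binomial) cover counting error only. Symbols were matched for 11740 of 11746 numbered features.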

Additional observations from a re-analysis of the deposited data

How the results depend on the processing

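The number of members followed its limits: 77 became 31 with at most 1 count in each sgCtrl library, 152 with at most 5, 44 with a mean of at least 10 counts per guide and 50 with scaled counts, 49 of which were among the 77. Leaving out 1 library at a time gave 72 to 113. Without the 3 replicate 2 libraries, a choice made after seeing the data, 99 features passed, 57 of them among the 77. Features called between the guides numbered 2, and 0 with limma-voom, 0 with only the 6 KEAP1 guide libraries, 19 with DESeq2, 26 with the replicate number as a block, and 0 to 2 when 1 library was left out (2 only without sgKEAP1-1 replicate 1). Members called were 0, and 1 (DEFB1) with DESeq2 and 1 (DEFB1, adjusted p = 0.00343) with the block. Whether the numbers pair the libraries is not settled. Of the same-numbered pairs, 7 of 9 correlated above 0.1 (range -0.01 to 0.52), and 7 of 9 libraries correlated best with a library of their own number. Pairs of replicate 2 correlated at 0.34 to 0.52, of replicate 3 at 0.16 to 0.21 and of replicate 1 at -0.01 to 0.23. Library names of 1 replicate number share a prefix whose meaning is not given in the sources used here. Neighbours called with sgKEAP1-1 went from 1 to 2 with the block and 2 with DESeq2 (1 to 2 when 1 library was left out, 2 without sgKEAP1-2 replicate 3), and with sgKEAP1-2 from 1 to 4 with the block, 2 without scaling and 2 with DESeq2 (1 to 2 when 1 library was left out, 2 without sgCtrl replicate 2, sgKEAP1-1 replicate 2 or sgKEAP1-2 replicate 3). Promoters with the ARE core numbered 4 in place of 13 when a purine was required on each side. The cause of these shifts was not tested. The NRF2 target counts stayed within 1.5 times of 24 and 27 in all settings run. Counts under 10 per library limit most statements on single genes.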

Other observations

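Beside the 77, some features were near silent in sgCtrl and reached the mean of 7 counts with 1 guide by the limits. With sgKEAP1-1 these numbered 17, none of which had at most 3 counts in every library of the other guide. They included WNT7B, a WNT ligand, at 0, 2 and 0 counts in sgCtrl, 12, 4 and 5 with sgKEAP1-1 and 7, 4 and 9 with sgKEAP1-2. With sgKEAP1-2 they numbered 28, and 5 of these had at most 3 counts in each sgKEAP1-1 library: MAF, LINC01697, TSPAN32 and 2 without a gene number. MAF, a transcription factor of the large MAF family, had 0, 0 and 2 counts in sgCtrl, 3, 1 and 3 with sgKEAP1-1 and 10, 4 and 7 with sgKEAP1-2. TSPAN32, a tetraspanin of blood cells, had 0, 1 and 0 counts, then 1, 3 and 2, then 4, 12 and 5.

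In the opposite direction, 5 features had at most 3 counts in each sgKEAP1-1 library and a mean of at least 7 counts in sgCtrl, and 27 did so for sgKEAP1-2. Among the 27 were OLFML1 (24, 11 and 13 counts in sgCtrl, 6, 4 and 1 with sgKEAP1-1, and 0, 1 and 1 with sgKEAP1-2) and IFIT1, an interferon-induced gene (9, 7 and 18 counts, then 7, 2 and 5, then 1, 0 and 0). AGTR1, an angiotensin receptor, was uneven within groups, at 5, 27 and 8 counts in sgCtrl, 1, 15 and 7 with sgKEAP1-1 and 1, 1 and 1 with sgKEAP1-2. These sets were chosen by the counts given here and named after their values were seen, and they are a description with no test.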
